A study of Mus musculus with 43 samples.

Results

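The mouse mitochondrial chromosome carries 37 genes, and all 37 were among the 54532 genes of the deposited read-count table. They are 13 mRNAs, 2 ribosomal RNAs (rRNAs) and 22 transfer RNAs (tRNAs), taken here as every gene that the GENCODE M21 annotation places on chromosome M. They were chosen by that location, with results of the same libraries known, and the split of the libraries into 2 runs was chosen by a measured value, the mitochondrial share of reads, which is given below as a description. The measurements came from bulk RNA sequencing of 43 libraries of laser-lesioned retinas from C57BL/6J mice, a laboratory strain, with 12 groups formed by sex, treatment and day. All mice, controls included, were lesioned by laser at 9 weeks of age, which makes blood vessels grow from the choroid into the retina (choroidal neovascularization, CNV). Control mice had the lesion alone. Mice given short-chain fatty acids (SCFA) also drank water with sodium salts of acetate (67.5 mM), propionate (40 mM) and butyrate (25 mM). They had this water from before the lesion until their retinas were taken. The weights listed beside the propionate and butyrate concentrations do not match these molarities, so those doses are uncertain. Retinas were taken 3, 7 or 14 days post laser (dpl), and each library pooled 2 retinas from different animals of a group. The 3 male control groups at 3, 7 and 14 dpl had 4, 3 and 3 libraries, and the male SCFA groups had 3, 5 and 3. The female control groups had 3, 3 and 3 libraries, and the female SCFA groups had 5, 4 and 4.

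Library totals ran from 14826957 to 21507527 counted reads (median 17683615), so that 3 reads stood for 0.139 to 0.202 reads per 1000000 counted reads depending on the library. Levels are given in CPM, reads per 1000000 reads of a library size rescaled by TMM (trimmed mean of M values), which differs slightly from the counted total. In the table the libraries stand in 2 runs of columns, the first 31 and the last 12, and the fits carried a term for run that is the same for every group, unless stated otherwise. The library labelled female control 7 dpl replicate 2 had Y-linked transcripts and was left out of the fits unless stated otherwise, which left 42 libraries. Each library is a pool of different animals, and p-values measure the spread between these libraries. The 6 cone photoreceptor markers summed to 1233 to 2375 CPM and the 5 bipolar cell markers to 546 to 1033 CPM across the control and SCFA libraries, so defining markers of the labelled tissue were present. A female SCFA 3 dpl library (replicate 2) also held lens transcripts, with Cryaa at 82524 CPM.

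Mitochondrial DNA is transcribed from both strands into long precursors, in which tRNAs stand between most of the mRNAs and rRNAs and are cut out to release them. The 13 mRNAs encode core subunits of the respiratory chain and of ATP synthase: the Nd genes belong to NADH dehydrogenase (complex I), Cytb to complex III, the Co genes to cytochrome c oxidase (complex IV), and Atp6 and Atp8 to ATP synthase. The rRNAs and tRNAs serve the separate mitochondrial ribosome that translates them. In the retina, photoreceptor inner segments are packed with mitochondria. Since these are whole retinas, fewer mitochondria-rich cells and less mitochondrial RNA per cell cannot be told apart.

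The tRNAs that carry most of the results below are printed first, each 5′ to 3′ as in the GENCODE M21 transcripts on build GRCm38 (mm10), with the anticodon in capitals. mt-Tl1, which reads leucine codons, lies on the plus strand at chrM:2676-2750, directly between mt-Rnr2 and mt-Nd1. mt-Tw, for tryptophan, lies on the plus strand at chrM:4950-5016 and overlaps the end of mt-Nd2. mt-Tc, for cysteine, is on the minus strand at chrM:5192-5257. mt-Tp, for proline, is on the minus strand at chrM:15356-15422 and was the tRNA gene with the most reads per length.
mt-Tl1: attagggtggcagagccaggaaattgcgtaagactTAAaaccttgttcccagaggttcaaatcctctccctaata
mt-Tw: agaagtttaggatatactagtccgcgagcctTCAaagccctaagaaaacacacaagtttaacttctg
mt-Tc: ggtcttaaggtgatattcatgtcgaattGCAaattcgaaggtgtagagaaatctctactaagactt
mt-Tp: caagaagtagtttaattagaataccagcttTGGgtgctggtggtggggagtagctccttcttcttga
At 75, 67, 66 and 67 bases, all 4 are shorter than a 150-base read, so a read counted on a tRNA gene can also hold bases of the genes beside it. Below, the level of a tRNA means reads on its gene. Whether these reads came from mature tRNAs or from precursors that hold them was not tested. Whether the counting used strand is not given in the sources used here. Reads of mt-Nd6 and of the 8 tRNA genes on the minus strand therefore cannot be told apart from reads of the opposite transcript.

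A stretch of chromosome 1 (24611535 to 24616197, GRCm38) holds a near-identical nuclear copy of part of the mitochondrial chromosome, with gene models of its own in the table. The annotated transcripts of the copy span over 98% of mt-Co2, mt-Atp6, mt-Co3, mt-Nd3 and mt-Nd4l, 63.6% of mt-Nd4, 31.3% of mt-Co1 and 21.1% of mt-Atp8. No base of mt-Cytb, mt-Nd1, mt-Nd2, mt-Nd5, mt-Nd6, the rRNAs or the tRNAs was found in them. The bases between these transcripts were not searched. mt-Ts1, mt-Td, mt-Tk, mt-Tg, mt-Tr and the rest of mt-Atp8 lie between mRNAs found in the copy. Whether the copy holds them too was not tested. Against the nuclear models Gm28661 (mt-Co2), Gm10925 (mt-Atp6) and Gm28437 (mt-Co3) there was no mismatch. Other annotated nuclear transcripts matched stretches of mt-Cytb, mt-Nd2, mt-Nd5, mt-Nd6, mt-Co1, mt-Co2 and mt-Atp6 at 90.7 to 97.6% identity. The windows below show the single mismatch between mt-Nd3 and Gm28438 over 345 aligned bases, T3C counted from the first base of mt-Nd3, in capitals, since so few differences decide whether a read can be placed.
mt-Nd3: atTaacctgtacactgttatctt
Gm28438: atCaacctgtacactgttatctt

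Per kilobase of gene, the mRNAs fell into a high and a low set (plot of levels along the chromosome). In the first run, the median level was 13959 CPM per kilobase for mt-Cytb, the cytochrome b of complex III, the highest of all 37. It was 12453 for mt-Co1, 11527 for mt-Nd1, 5748 for mt-Nd2, 4902 for mt-Nd4, 4639 for mt-Nd6 and 3008 for mt-Nd5. The 5 mRNAs held almost wholly in annotated transcripts of the nuclear copy were lower: 418 for mt-Nd3, 290 for mt-Atp6, 264 for mt-Co2, 252 for mt-Co3 and 60.6 for mt-Nd4l. Most of the nuclear models stood near their mRNAs, with 364 for Gm10925 (mt-Atp6), 315 for Gm28661 (mt-Co2), 223 for Gm28437 (mt-Co3) and 51.5 for Gm10222 (mt-Nd4l). Gm28438, at 104, lay well below mt-Nd3. So for these 5 mRNAs the values count only the reads that the unnamed counting step gave to the mitochondrial gene. The lowest mRNA was mt-Atp8 at 22.1 CPM per kilobase, a gene that overlaps mt-Atp6. Whether the nuclear copy holds all of mt-Atp8 was not tested.

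The rRNAs stood at 2686 (mt-Rnr2) and 1590 CPM per kilobase (mt-Rnr1). Among the tRNAs, mt-Tp was highest at 951 CPM per kilobase, followed by mt-Tl1 at 317, mt-Tc at 270, mt-Tn (asparagine) at 162, mt-Te (glutamate) at 118 and mt-Tw at 88.3. At the other end, mt-Ts1 had 0.93 and mt-Tf, mt-Td and mt-Tk a median of 0, with no read in 42, 25 and 31 of the 43 libraries. These 4 tRNAs did not pass the filter on low counts, so 33 of the 37 genes were tested: all 13 mRNAs, both rRNAs and 18 tRNAs.

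**Figure D1:**
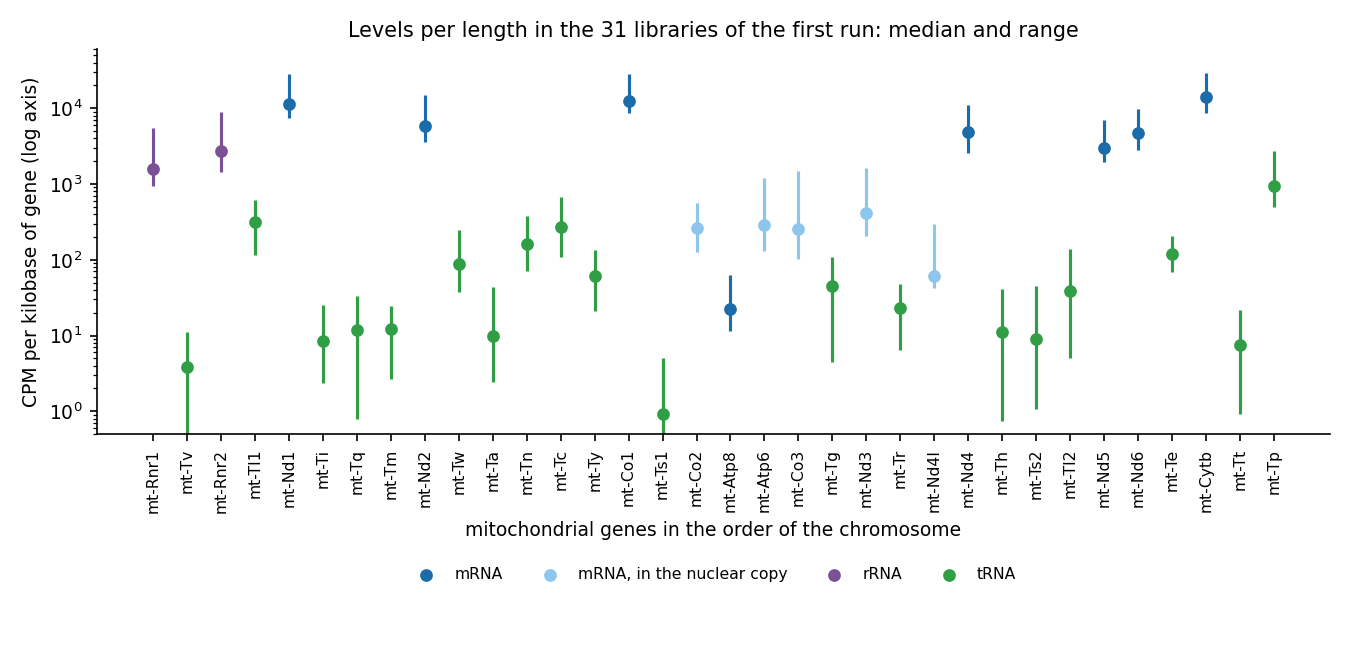
Level of each mitochondrial gene in the 31 libraries of the first run, in CPM per kilobase on a log axis, in the order of the chromosome; points are medians and lines the range over libraries, cut at the axis. The 5 mRNAs held almost wholly in annotated transcripts of the nuclear copy (light blue, medians 60.6 to 418) sit below 7 of the other 8 mRNAs (3008 to 13959). mt-Tf, mt-Td and mt-Tk are left out because their median is 0.

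Mitochondrial mRNAs took 4.71 to 14.8% of all counted reads in the first run (median 6.78%) and 2.50 to 4.57% in the second (median 3.78%), so the runs did not overlap. This difference is the reason for splitting by run and is given as a description. For single genes, the ranges of the runs did not overlap for mt-Cytb, mt-Co1, mt-Nd1, mt-Nd2, mt-Rnr1 and mt-Rnr2. Within the first run, the share had a lowest, median and highest value of 4.71, 5.88 and 9.05% in 15 control libraries and of 4.86, 7.20 and 14.8% in 16 SCFA libraries, with wide overlap. Within the second run, the 4 control libraries stood at 2.50 to 3.24% and the 8 SCFA libraries at 3.73 to 4.57%, without overlap. Those 4 controls were all male 3 dpl or female 14 dpl libraries, while the 8 SCFA libraries came from 5 groups.

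**Figure D2:**
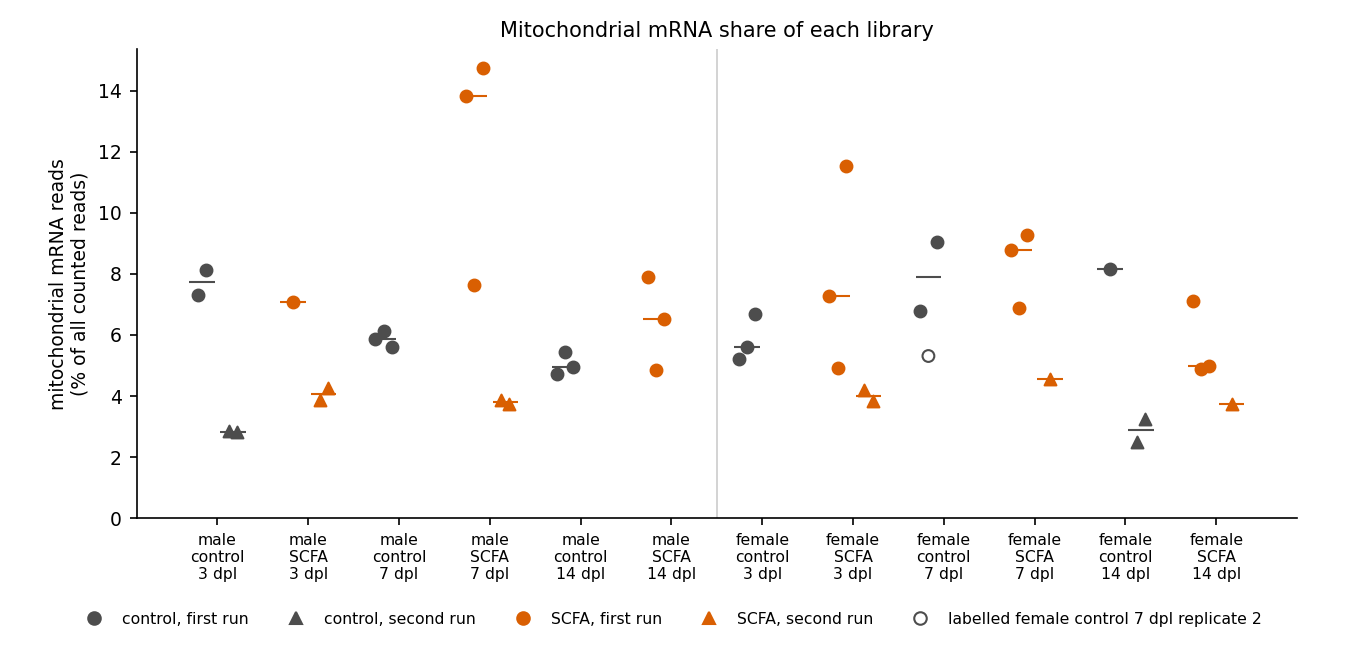
Share of all counted reads that fell on the 13 mitochondrial mRNAs, in percent, for each of the 43 libraries by group; circles are the first run, triangles the second, short lines the median of a group within a run. The second-run libraries (2.50 to 4.57%) lie below every first-run library, and 2 male SCFA 7 dpl libraries (13.8 and 14.8%) stand highest.

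Whether SCFA changed mitochondrial RNA in males at 7 dpl was asked with 5 SCFA and 3 control libraries. Of the 33 tested mitochondrial genes 11 were called higher with SCFA, 9 mRNAs and both rRNAs, and no tRNA was called. mt-Cytb stood at 12871, 13253 and 11785 CPM in the controls. In the SCFA libraries of the same run it was 32645, 19328 and 32916, and in those of the second run, where no male 7 dpl control exists, 8430 and 8232. Those last libraries entered the fit only through the term for run. All 3 first-run SCFA libraries lay above all controls. The log2 fold change was 1.01 (SE 0.22, adjusted p = 0.0018 by edgeR's quasi-likelihood test over all 18628 genes tested). A gene is called here if its adjusted p was below 0.1 and its log2 fold change lay beyond 1 in size, and 3.52% of all genes were called in this comparison, 2.37% as higher. DESeq2 gave mt-Cytb a log2 fold change of 1.03 (SE 0.47, adjusted p = 0.11), so that this call was lost there, though it called 12 mitochondrial genes in all. With the libraries listed in the study's supplement and no term for run, the direction turned for 6 of the 11 called genes. The called genes mt-Nd4, mt-Nd2, mt-Nd6, mt-Atp6 and mt-Atp8 kept theirs. That set holds SCFA replicate 2 of the first run and replicates 4 and 5 of the second, against the 3 first-run controls. Mitochondrial mRNAs took 3.88 and 3.74% of reads in replicates 4 and 5, against 5.59 to 6.14% in the controls. So the difference between runs is part of that comparison. There 0 mRNAs and 0 rRNAs passed, the mRNA median was -0.07, mt-Cytb was at -0.07, mt-Nd1 at -0.14, mt-Co3 at -0.61 and mt-Rnr2 at -0.62, and 5 tRNAs were called lower.

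Of the 7 complex I mRNAs, 5 were called higher, and mt-Nd5 and mt-Nd3 are given further down. mt-Nd4 was at 5202, 4859 and 4265 CPM in the controls and at 15334, 7847 and 15196 in the first-run SCFA libraries, a log2 fold change of 1.25 (SE 0.25, adjusted p = 0.0010). mt-Nd1 and mt-Nd2 changed by 1.10 and 1.26, and mt-Nd6, the single mRNA encoded on the other strand, by 1.11. mt-Nd4l changed by 1.26 (adjusted p = 0.0092), mt-Atp8 by 1.43 (adjusted p = 0.0029), and the rRNAs by 1.26 (mt-Rnr1) and 1.16 (mt-Rnr2), all by the same edgeR test.

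Of the mRNAs held in the nuclear copy, mt-Atp6, a proton-channel subunit of ATP synthase, was at 197, 118 and 110 CPM in the controls and at 440, 189 and 476 in the first-run SCFA libraries. The log2 fold change of mt-Atp6 was 1.51 (SE 0.42, edgeR adjusted p = 0.012). mt-Co3, the third core subunit of cytochrome c oxidase, was at 232, 139 and 118 CPM in controls, at 353, 153 and 1151 in the first-run SCFA libraries and at 69.5 and 95.3 in those of the second run. Its log2 fold change of 1.48 (SE 0.48, edgeR adjusted p = 0.030) rested on the library at 1151 and was 0.68 (adjusted p = 0.33) without it. The nuclear models of the copy moved in the same direction, with a log2 fold change of 1.94 for Gm10925 and 1.35 for Gm28437.

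The remaining mRNAs and mt-Tp moved by less than the called fold. mt-Co2 had a log2 fold change of 0.99 (edgeR adjusted p = 0.027), mt-Nd5 0.76, mt-Co1 0.72 and the tRNA mt-Tp 0.9999 (adjusted p = 0.014), which with the called genes makes 15 of 33 higher at any fold, against 13.4% of all genes. mt-Nd3 had 0.67 (adjusted p = 0.30). Over the 13 mRNAs the log2 fold change ran from 0.67 to 1.51 with a median of 1.11, over the 18 tRNAs from -0.73 to 0.9999 with a median of 0.31, and over all genes tested the median was -0.03. mt-Tl1 went the other way from its neighbour mt-Nd1, at 33.1, 32.4 and 28.4 CPM in controls and at 24.6, 11.9 and 22.9 in first-run SCFA libraries. Its log2 fold change was -0.71 (SE 0.31, edgeR adjusted p = 0.11). mt-Tw was at 7.01, 9.43 and 6.23 CPM in controls and 7.29, 3.72 and 10.5 in first-run SCFA libraries, with overlap and a log2 fold change of -0.23.

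Without the term for run, 0 mitochondrial genes were called in males at 7 dpl, and with the first run alone 13. The rise rested on replicates 1 and 3 of the SCFA group, whose mitochondrial mRNAs took 13.8 and 14.8% of reads against 7.65% in replicate 2. Without both, 0 of 33 mitochondrial genes were called. Without replicate 3 alone 4 were called. The 6 cone markers summed to 1233 to 2072 CPM in the 3 first-run SCFA libraries of this group and to 1707 to 1794 in the male 7 dpl controls, with overlap. The 5 Müller glia markers summed to 4087 to 7730 CPM in the same SCFA libraries, against 2542 to 3274 in those controls, without overlap. The 6 pigment epithelium markers went the other way without overlap, from 332 to 408 CPM in those controls to 196 to 256 in the 3 SCFA libraries, as did the 6 skeletal muscle markers at low levels, from 5.60 to 6.95 CPM to 2.42 to 4.29. The bipolar, oligodendrocyte, microglia, lens and blood marker sums overlapped. The part of these cell markers in the result was not tested.

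**Figure D3:**
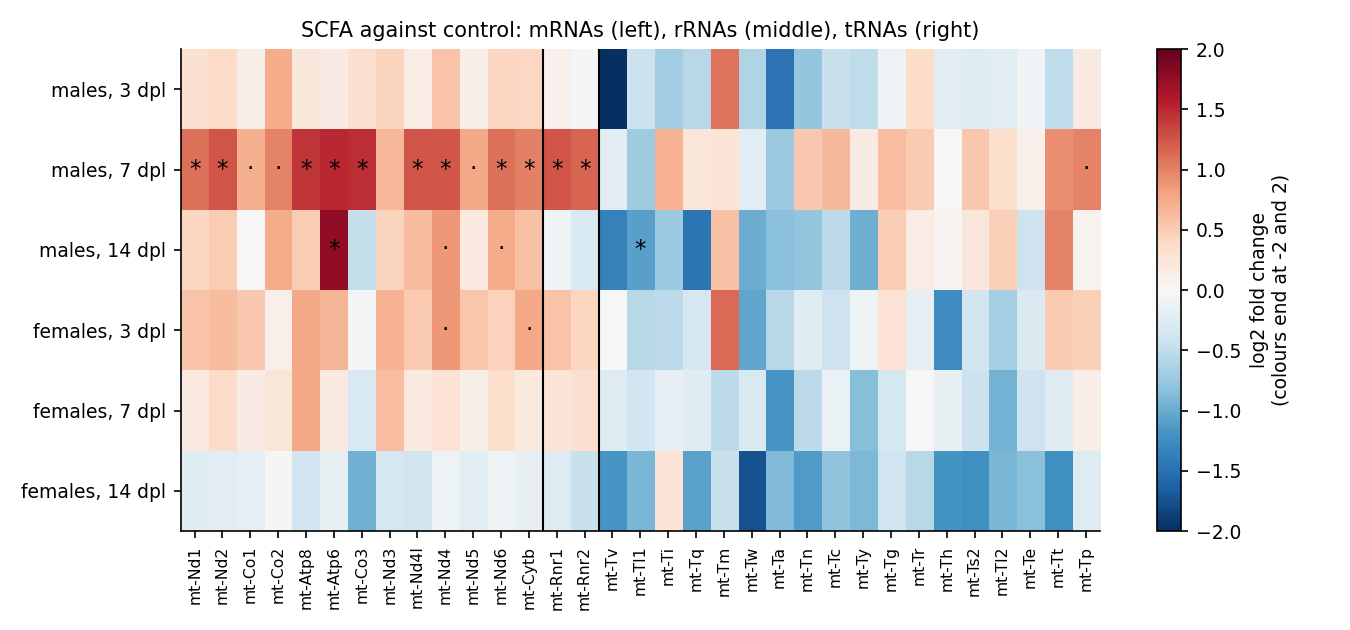
Log2 fold change, SCFA over control, of the 33 tested mitochondrial genes (columns: mRNAs, rRNAs, tRNAs) in each sex and day (lines), with colours ending at -2 and 2; a star marks a called gene, and a dot an adjusted p below 0.1 with a smaller change. In males at 7 dpl 11 stars stand, 2 in males at 14 dpl and 0 elsewhere.

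In males at 14 dpl, with 3 libraries a group all from the first run, mt-Atp6 was called higher and mt-Tl1 lower, 2 of 33 genes against 1.59% of all genes. mt-Atp6 was at 90.1, 132 and 94.8 CPM in controls and at 824, 114 and 138 with SCFA, so a single library stood apart. Its log2 fold change of 1.77 (SE 0.45, edgeR adjusted p = 0.021) was 0.26 (adjusted p = 0.79) without SCFA replicate 1. mt-Tl1 was at 26.3, 30.6 and 24.1 CPM in controls and at 14.6, 13.3 and 10.3 with SCFA, without overlap. That is a log2 fold change of -1.08 (SE 0.35, edgeR adjusted p = 0.057), and leaving out single libraries gave adjusted p values from 0.073 to 0.20. mt-Tw was also lower in each SCFA library, at 3.45, 2.55 and 3.84 CPM against 5.92, 7.48 and 6.31 in controls, but its log2 fold change of -0.99 did not pass (adjusted p = 0.20). mt-Nd4 (0.87) and mt-Nd6 (0.74) passed the adjusted p below the called fold, which makes 4 of 33 at any fold, against 11.4% of all genes. The mRNA median was 0.51 and the tRNA median -0.47.

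In males at 3 dpl, 0 of 33 mitochondrial genes were called by edgeR or by DESeq2, with 0.0215% of all genes called. With an unadjusted p below 0.05 stood 5, against 11.8% of all genes. mt-Co3 was at 258 and 288 CPM in the first-run controls and 128 in the first-run SCFA library, and in the second run at 51.7 and 40.3 in controls and 61.2 and 128 with SCFA. mt-Atp6 was at 336 and 451 against 286 in the first run, and at 57.9 and 57.9 against 77.4 and 132 in the second. For both genes, then, SCFA libraries were below controls in the first run and above them in the second.

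In females at 3 dpl, 0 mitochondrial genes were called, against 2.39% of all genes, and 8 had an unadjusted p below 0.05, against 22.8%. mt-Cytb (log2 fold change 0.76, edgeR adjusted p = 0.040) and mt-Nd4 (0.86, adjusted p = 0.042) rose below the called fold, 2 of 33 against 10.2% of all genes. Without SCFA replicate 3 of this group, whose mitochondrial mRNA share was 11.5%, 0 mRNAs were higher at any fold. mt-Tw was at 7.21, 7.48 and 12.8 CPM in the controls and at 4.23, 2.70 and 5.13 in first-run SCFA libraries, without overlap. Its log2 fold change of -1.03 had an adjusted p of 0.13 by edgeR. The mRNA median was 0.58 and the tRNA median -0.31.

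In females at 7 and 14 dpl, 0 mitochondrial genes were called, as was 0 of all 18628 genes. At 7 dpl 1 mitochondrial gene had an unadjusted p under 0.05, against 8.96% of all genes. At 14 dpl there were 7, against 3.18%, all lower, and 6 of them tRNAs. The largest difference among these was in mt-Tw, the tryptophan tRNA, at 16.3 CPM in the first-run control and 3.58, 3.17 and 2.84 in first-run SCFA libraries, and at 1.36 and 6.65 in second-run controls and 2.53 in the second-run SCFA library. Its log2 fold change was -1.74 (SE 0.44) with an edgeR adjusted p of 0.66. mt-Tl1 followed the same pattern, at 32.9 CPM against 14.5, 8.76 and 10.4 in the first run, and at 5.78 and 15.6 against 10.8 in the second. The first-run contrast in this group thus has a single control library. In females at 14 dpl the mRNA median was -0.21 and the tRNA median -0.90. DESeq2 gave 0 called mitochondrial genes in both comparisons as well.

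Averaged over both sexes and the 3 days, a comparison added after these values were seen, SCFA libraries had more reads on the mRNAs and fewer on several tRNA genes. At any fold 21 of 33 passed, against 31.9% of all genes. With any fold change, 12 of 13 mRNAs were higher at an adjusted p under 0.1, where 16.1% of all genes were higher. The largest were mt-Atp6 at a log2 fold change of 0.69 (SE 0.18, edgeR adjusted p = 0.0041) and mt-Nd4 at 0.62 (SE 0.11, adjusted p = 7.9e-05), and mt-Co3 was at 0.00. Of the 18 tRNAs 8 were lower, where 15.7% of all genes were lower. mt-Tw had a log2 fold change of -0.81 (SE 0.19, edgeR adjusted p = 0.0014), mt-Tl1 -0.68 (SE 0.14, adjusted p = 4.6e-04), mt-Ta (alanine) -0.94, mt-Ty (tyrosine) -0.53, mt-Tn -0.49 and mt-Te -0.32. Only mt-Tv (valine, -1.03, adjusted p = 0.048) passed the called fold, against 0.693% of all genes, and it had 3 reads or fewer in 22 libraries. Without the term for run, 0 mRNAs and 7 tRNAs passed. Without male SCFA 7 dpl replicates 1 and 3, it was 8 mRNAs and 11 tRNAs.

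The average hid a difference between the runs, which was tested with a separate SCFA term for each run, also added after the values were seen. In the first run, 7 of 13 mRNAs were higher and 9 of 18 tRNAs lower at an adjusted p below 0.1 and any fold, where 19.2% of all genes were higher and 18.3% lower. mt-Tl1 had a lowest, median and highest value of 20.9, 29.5 and 45.8 CPM in 14 control libraries and of 8.76, 14.5 and 24.6 in 16 SCFA libraries, with overlap only between 20.9 and 24.6. The log2 fold change of mt-Tl1 was -0.96 (SE 0.13, edgeR adjusted p = 2.0e-06). mt-Tw went from 5.39, 7.48 and 16.3 CPM to 2.55, 3.78 and 10.5, a log2 fold change of -1.14 (SE 0.18, adjusted p = 1.6e-05). mt-Ta changed by -1.28, mt-Tv by -1.42, mt-Ty by -0.70, mt-Tn by -0.68, mt-Tc by -0.50, mt-Te by -0.47 and mt-Tq (glutamine) by -0.59. mt-Tp, the most abundant tRNA gene, was at 0.11 (adjusted p = 0.61), and mt-Nd4 was the mRNA with the largest rise, 0.53.

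The second-run values below are fitted ones, since only the male 3 dpl and female 14 dpl groups had controls in that run, and the fit assumes the same step between runs in every group. At an adjusted p below 0.1 and any fold, 10 of 13 mRNAs were higher with SCFA in the second run, where 7.88% of all genes were higher. At that threshold 0 tRNAs were lower, where 8.39% of all genes were. mt-Cytb had a lowest, median and highest value of 4870.2, 5513 and 7264 CPM in 4 controls and of 7865, 8515 and 9494 in 8 SCFA libraries, without overlap, and its log2 fold change was 0.77 (SE 0.21, edgeR adjusted p = 0.022). mt-Atp6 changed by 1.60 (SE 0.39, adjusted p = 0.012), mt-Atp8 by 1.20 and mt-Co2 by 1.16. The tRNA mt-Tp rose with them, by 0.84 (adjusted p = 0.052). mt-Tl1 went from 5.78, 8.23 and 15.6 CPM to 7.73, 10.8 and 12.8, a log2 fold change of 0.36 (SE 0.28, adjusted p = 0.44), and mt-Tw was at 0.50 (adjusted p = 0.47).

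The difference between the runs passed for 5 tRNAs and for the mRNAs mt-Atp6 and mt-Co2, 7 of 33 mitochondrial genes, where 24.5% of all genes passed, so a difference of this kind was no more frequent among mitochondrial genes. For mt-Tl1 it was 1.32 (SE 0.32, edgeR adjusted p = 0.0054) and for mt-Tw 1.64 (SE 0.46, adjusted p = 0.014). This term sets the step between runs in SCFA libraries, which 5 groups had in both runs, against that in controls, which is known only from 7 libraries of the male 3 dpl and female 14 dpl groups. Leaving out single libraries gave 3 to 12 genes, with 3 when male control 3 dpl replicate 2, 3 or 4 or female control 14 dpl replicate 2 was out, 4 without male control 3 dpl replicate 1 and 12 without male SCFA 7 dpl replicate 3. Without male SCFA 7 dpl replicates 1 and 3 it was 21. In the same way, the second-run mRNA count of 10 was 4 without female control 14 dpl replicate 2 and 5 without replicate 1 of that group.

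**Figure D4:**
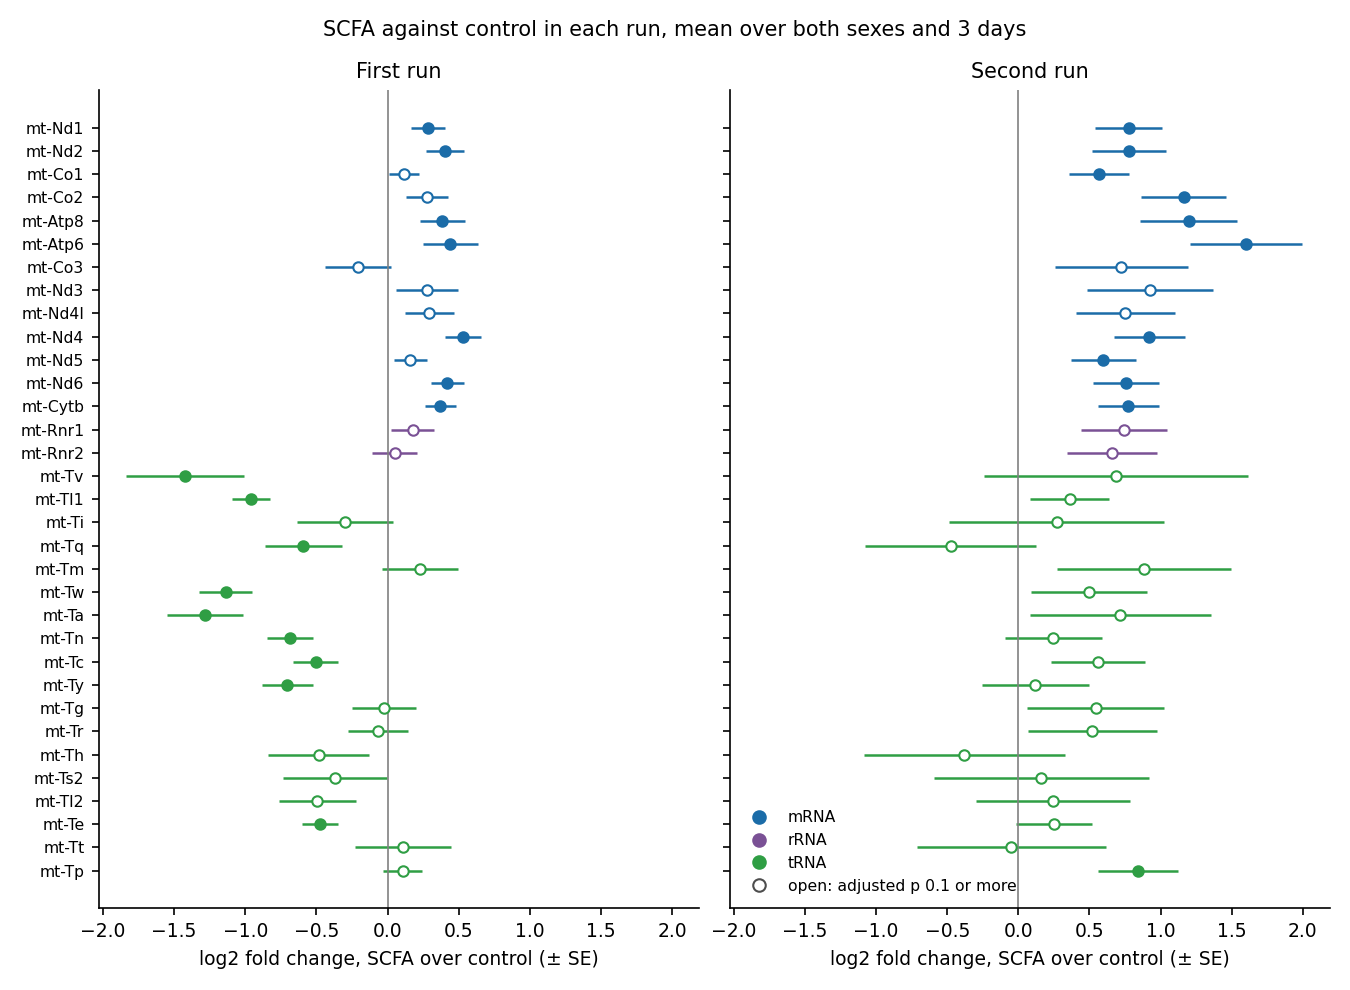
Log2 fold change, SCFA over control, with its standard error, for the 33 tested mitochondrial genes in the first run (left) and the second run (right), from a fit with an SCFA term for each run; filled points have an adjusted p under 0.1. Of the filled points, 9 tRNAs (green) lie below 0 and 7 mRNAs (blue) above it in the first run, and 10 mRNAs and mt-Tp above 0 in the second. Of all points, filled or open, 12 of 13 mRNAs and 3 of 18 tRNAs lie above 0 in the first run. In the second run 13 of 13 mRNAs and 15 of 18 tRNAs do.

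Set against each other within a library, tRNA and mRNA reads do not depend on the library total. In the first run, the libraries had a lowest, median and highest value of 2.07, 2.75 and 3.33 tRNA reads per 1000 mitochondrial mRNA reads in 14 controls and of 1.44, 1.80 and 2.21 in 16 SCFA libraries. The ratio of these medians was 0.652, and 0.622 with mRNAs outside the nuclear copy alone. A single control, female 7 dpl replicate 3 at 2.07, lay within the range of the SCFA libraries, and the other 13 controls were at 2.51 or above. In the second run, 3 controls lay at 2.04, 2.06 and 2.15 and female control 14 dpl replicate 3 at 2.90, and SCFA libraries had 1.86, 1.94 and 2.08. The early-response gene Fos, chosen after its values were seen, set apart the same libraries as this ratio. Whether Fos followed the ratio among libraries of the same treatment was not tested. Fos was at 50.2 to 74.4 CPM in those 13 first-run controls but at 20.1 in female 7 dpl replicate 3, and at 20.8 to 48.5 in first-run SCFA libraries. In the second run it was at 101 CPM in female control 14 dpl replicate 3, at 20.97 to 28.4 in the other 3 controls and at 16.7 to 31.1 with SCFA. The part of Fos, and of whatever moved it, in the tRNA difference was not tested.

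**Figure D5:**
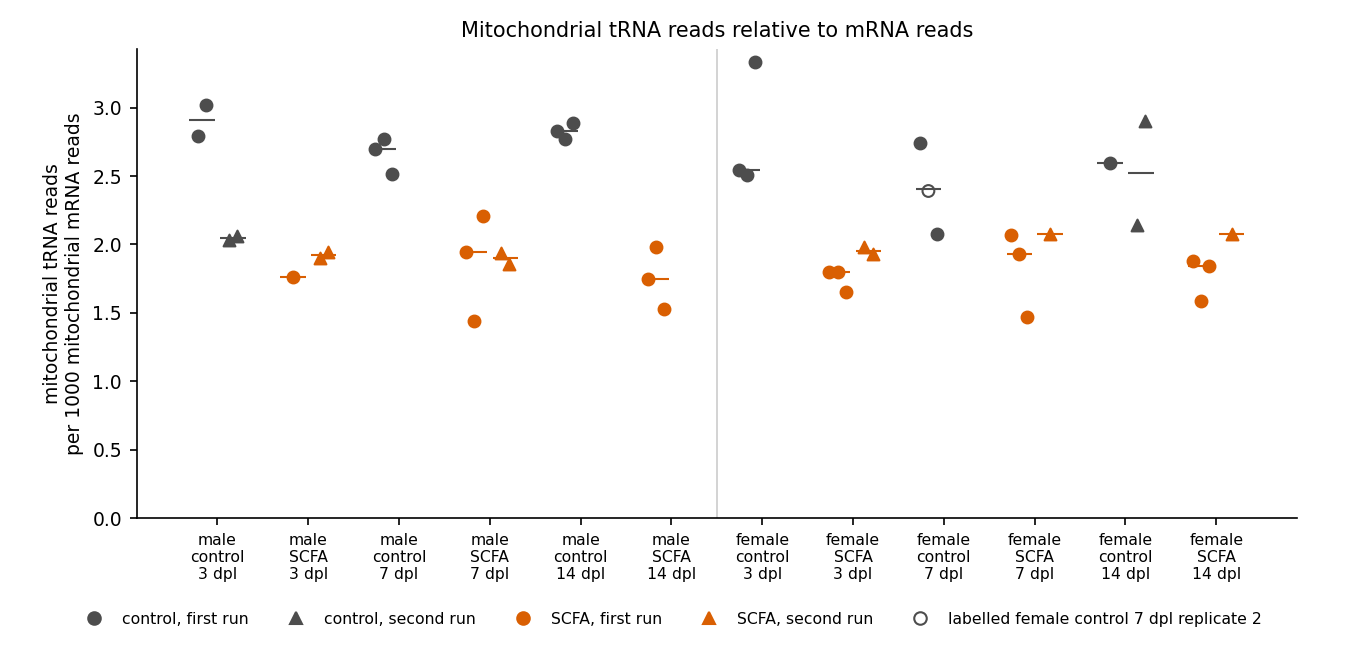
Mitochondrial tRNA reads per 1000 mitochondrial mRNA reads in each library by group; circles are the first run, triangles the second, short lines medians of a group within a run, the open circle the library left out of the fits. First-run controls other than female 7 dpl replicate 3 and the open circle lie at 2.51 to 3.33 and first-run SCFA libraries at 1.44 to 2.21, while in the second run all but 1 control (2.90) lie near the SCFA libraries.

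The rRNAs and mt-Nd6 changed less relative to the mRNAs. In the first run there were 71.5, 94.8 and 108 rRNA reads per 1000 mRNA reads (lowest, median, highest) in controls and 55.6, 76.0 and 125 with SCFA, and in the second 56.1, 56.8 and 71.8 in controls and 53.1, 60.5 and 70.0 with SCFA. mt-Nd6, whose mRNA comes from the other strand, stood at 30.9, 33.3 and 44.8 reads per 1000 reads of the other mRNAs in first-run controls and at 31.2, 37.3 and 53.4 with SCFA. Both measures overlapped between treatments.

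Between the sexes, in control mice, 0 mitochondrial genes were called at 3 dpl and 0 at 7 dpl, where 0.0376% and 0.0429% of all genes were called, and DESeq2 also called 0 at both days. At 7 dpl, with the 2 female libraries that entered the fit, mt-Co3 was at 232, 139 and 118 CPM in males and 278 and 363 in females, a log2 fold change, male over female, of -0.98 (SE 0.55, edgeR adjusted p = 0.71). mt-Atp6 was at 197, 118 and 110 CPM in males and 218 and 322 in females, with -0.93 (SE 0.48, adjusted p = 0.69). For mt-Atp6 and for mt-Co3 all 3 males lay below both females, but neither passed the test. An unadjusted p below 0.05 was reached by mt-Nd4 and mt-Nd6 at 7 dpl, 2 of 33 against 7.39% of all genes, and by mt-Ta alone at 3 dpl, 1 against 5.88%.

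At 14 dpl, mt-Co2 was called lower in male than in female controls, 1 of 33 against 0.703% of all genes. It was at 87.7, 97.5 and 89.9 CPM in males, at 257 in the first-run female control and at 48.0 and 71.8 in the second-run ones. The log2 fold change was -1.12 (SE 0.35, edgeR adjusted p = 0.068), and without the first-run female control it was -0.82 (adjusted p = 0.32). With reads of the nuclear copy added it was -0.78 (adjusted p = 0.19). mt-Nd4, mt-Cytb, mt-Nd2 and mt-Nd6 were lower by less than the called fold, with log2 fold changes from -0.90 to -0.71, so 5 of 33 passed at any fold, against 7.64% of all genes. Without the first-run female control 0 of them passed.

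Whether SCFA acted differently in males and females was tested directly. At 3, 7 and 14 dpl 0 mitochondrial genes were called, where 0, 0.0161 and 0% of all genes were, and 1, 10 and 4 had an unadjusted p below 0.05, where 14.3, 7.31 and 12.2% of all genes had such a p. At 7 dpl all 13 mRNAs had a more positive value in males, with a median difference of 0.82 in log2 fold change, as had both rRNAs and 17 of 18 tRNAs, the tRNAs with a median of 0.79. mt-Co3 had 1.79 (SE 0.70, edgeR adjusted p = 0.60) and mt-Atp6 1.34 (SE 0.60, adjusted p = 0.67). The male side of these values is the SCFA group whose rise rested on replicates 1 and 3. The female side has replicates 1 and 3 as its only controls, with mitochondrial mRNA shares of 6.78 and 9.05%. At 14 dpl mt-Atp6 had 1.91 (SE 0.60, adjusted p = 0.30), which rests on the library at 824 CPM named above. So the rise in males at 7 dpl was not shown to differ from the value in females.

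Over time, in controls, 0 mitochondrial genes were called between 3 and 7 or between 7 and 14 dpl in either sex, as was 0 of all genes. An unadjusted p below 0.05 was reached by 2 between 3 and 7 dpl in males and 2 in females, against 8.21 and 6.89% of all genes. Between 7 and 14 dpl it was reached by 0 in both sexes, against 6.37 and 9.23%, and DESeq2 called 0 in all 4 comparisons. Among the males the larger difference was in mt-Atp6, with a log2 fold change of -1.06 (SE 0.43, edgeR adjusted p = 0.53). It went from 336 and 451 CPM in the first-run 3 dpl controls to 197, 118 and 110 at 7 dpl.

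The nuclear genes that make, cut, modify, charge and degrade mitochondrial RNA or copy mitochondrial DNA were read from lists of 80 genes, of which 78 were tested, and 0 were called in any comparison. At an adjusted p under 0.1 with any fold change, 8 were higher and 24 lower in males at 7 dpl (median log2 fold change -0.17), where 13.4% of all genes were higher and 10.7% lower. Of the enzymes that charge tRNAs with their amino acids, 9 of 22 were lower. Among the transcription genes, Polrmt, the mitochondrial RNA polymerase, had a log2 fold change of -0.47 (SE 0.13, edgeR adjusted p = 0.011) and Tfb2m, the factor that opens the promoter with it, 0.51 (SE 0.13, adjusted p = 0.0065). Trmt10c, a subunit of the enzyme that cuts the 5′ ends of mitochondrial tRNAs, was at 0.57 (adjusted p = 0.010) and Nsun3, which methylates the mitochondrial methionine tRNA, at 0.81. Ppargc1a, a regulator of mitochondrial biogenesis, was at 0.62 (adjusted p = 0.0018). The nuclear genes were read from the main fit alone. How far their values rest on single libraries or on the term for run was not tested. In males at 14 dpl 4 were higher and 7 lower, 11 of 78 against 11.4% of all genes, and in females at 3 dpl 2 and 9, 11 of 78 against 10.2%.

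Over both sexes and all days, 11 of these 78 nuclear genes were higher, where 16.1% of all genes were, and 31 lower, where 15.7% were. Tbrg4 and Ptcd1, which act on mitochondrial RNA processing, had log2 fold changes of -0.28 and -0.30, and Trmt10c had 0.38 (SE 0.07, edgeR adjusted p = 8.7e-05). Among the charging enzymes 1 of 22 was higher and 10 lower. Lars2, which charges mt-Tl1 with leucine, was at -0.46 (SE 0.14, adjusted p = 0.011). Polrmt was at -0.21 and Tfb2m at 0.25. In females at 7 and 14 dpl and in males at 3 dpl, 0 passed. Between male and female controls at 14 dpl 6 were higher in males and 2 lower, 8 of 78 against 7.64% of all genes.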

How the data were processed

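Each library was made from 2 pooled retinas and sequenced in reads of 150 bases from both ends. The authors deposited raw read counts per Ensembl gene, not normalized, for all 43 libraries, with 14826957 to 21507527 counts each, and 3 counts were taken as the floor of detection. The submitters' processing notes name the build mm10 and DESeq2. The aligner, the counting tool, its strand setting and its handling of reads that match several places are not given in the sources used here, and reads shared with nuclear copies or between overlapping genes may be split or lost. Of the 54532 genes, 54409 were found in GENCODE M21, which gave positions and sequences.

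Counts were fitted with edgeR 4.0.16 (quasi-likelihood, TMM scaling, filterByExpr) in R 4.3.3, with terms for the 12 groups and the column run, on 42 libraries and 18628 genes, with Benjamini-Hochberg adjustment over all of them. Calls needed an adjusted p below 0.1 and a log2 fold change beyond 1 in size. CPM values use TMM library sizes. DESeq2 1.42.0 was run as an alternative. Nuclear copies were sought with BLAST+ 2.17.0 among annotated transcripts alone, at an identity of at least 99% for the copy on chromosome 1. Counts were also simulated for the male 7 dpl comparison over 18628 genes. There edgeR gave an adjusted p below 0.1 to 77% of 100 genes changed by a fold of 2. It gave one to 96% of 100 genes changed by a fold of 4. No fold threshold was applied, and the genes changed by a fold of 2 had a median log2 fold change of 0.999 in size. The simulated step between runs was the same in every group, and no shift was shared by the genes of single libraries. So these rates do not cover data where either differs. False calls were not counted.

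The members and lists were chosen with earlier results of these data known. Named in full are mitochondrial genes called in a comparison, mt-Co3, mt-Atp6, mt-Tl1, mt-Tw, and those highest or lowest per length in each class, while others are given by range and count. Nuclear genes come from lists for transcription, processing, decay, tRNA modification, tRNA charging, DNA copying and regulation. Alternatives covered scaling, the filter on low counts, the run term, single runs, thresholds, a replicate block, left-out libraries, the libraries listed in the study's supplement, and, added after the data were seen, the SCFA term averaged over sexes and days or set for each run, reads of the nuclear copy added, and male SCFA 7 dpl replicates 1 and 3 left out. One retinal marker gene, and the summed level of the marker list that holds it, are not reported here.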

Additional observations from a re-analysis of the deposited data

Results flagged for a closer look

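The mt-Co3 level of male SCFA 7 dpl replicate 3 stood far from the other 4 libraries of its group. It was 1151 CPM, the nearest was 353 CPM and the lowest 69.5 CPM, so the gap took 0.738 of the group's whole range. It was the only one of 55 such tests, each of a single gene or ratio within a group of 4 or 5 libraries, in which a library stood apart by this measure, and chance alone flags about 1 in 20. The 5 libraries come from both runs, which differ in mitochondrial share, and the cause was not tested.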

How the results depend on the processing

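Of 215 counts and ratios recomputed under an alternative that left out no single library, 183 stayed equal or close in size. A larger count was found for 20 and a smaller one for 12. This label took no account of direction, and 0 called in both settings counted as equal. The cause was not tested for any of them. Without the term for run, the count of called mitochondrial genes was 0 in males at 7 dpl, 0 in males at 14 dpl and 0 between the sexes at 14 dpl, and 3 for SCFA averaged over sexes and days. With the first run alone it was 1 in females at 3 dpl, 1 in females at 14 dpl, 0 between the sexes at 14 dpl and 3 for the average. With the second run alone it was 2 in males at 3 dpl, and most other comparisons could not be made in that run. With no filter on low counts it was 1 in females at 3 dpl, 2 in females at 14 dpl, 2 between the sexes at 14 dpl, 5 and 1 for the sex difference in the response at 7 and 14 dpl, 1 between 3 and 7 dpl in male controls and 1 between 7 and 14 dpl in female controls. At any fold change it was 4 in males at 14 dpl, 2 in females at 3 dpl, 5 between the sexes at 14 dpl and 21 for the average, and at an adjusted p under 0.05 it was 1 in males at 14 dpl and 0 between the sexes at 14 dpl. The average gave 0 when female control 7 dpl replicate 2 was put back. Without male SCFA 7 dpl replicates 1 and 3 it was 0 in males at 7 dpl and 2 for the average, with 4 mRNAs in the first run and 21 genes in the difference between runs.

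With the libraries of the study's supplement and no run term, 5 tRNAs were lower in males at 7 dpl, 11 genes higher in females at 14 dpl, 3 were called between the sexes at 7 dpl and 0 at 14 dpl. In males at 7 dpl, SCFA replicates 4 and 5 were second-run libraries and all controls first-run ones. In females at 14 dpl, controls 2 and 3 were second-run libraries and SCFA replicates 1, 2 and 3 first-run ones. There SCFA and run cannot be told apart. With this set the log2 fold change in males at 7 dpl turned to -0.066 for mt-Cytb, -0.14 for mt-Nd1, -0.62 for mt-Rnr2, -0.44 for mt-Rnr1, -0.61 for mt-Co3 and -0.015 for mt-Nd4l. This set could not be used at 3 dpl, for the sex difference in the response or for days.

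Replicate numbers did not pair the libraries (mean correlation of deviations -0.0025 over 198 same-numbered pairs). With the replicate number as a block, 10 genes were called in males at 7 dpl, where mt-Cytb fell just under the called fold, and 0 between the sexes at 14 dpl.

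Leaving out single libraries gave 4 to 13 called genes in males at 7 dpl, 0 to 3 in males at 14 dpl (0 without SCFA replicate 1), 0 to 1 in females at 3 dpl, 0 to 1 in females at 14 dpl, 0 to 4 between the sexes at 14 dpl (4 without female control replicate 2), 0 to 1 for the sex difference in the response at 14 dpl and 0 to 2 for the average. By run, it gave 4 to 7 mRNAs and 7 to 11 tRNAs in the first run, 4 to 11 mRNAs and 0 to 5 tRNAs in the second (5 without female control 14 dpl replicate 3), and 3 to 12 genes for their difference. Low counts limit mt-Tf, mt-Tk, mt-Td, mt-Ts1 and mt-Tv, which lay at 3 counts or fewer in 43, 43, 41, 41 and 22 libraries. The part of depth, and of reads that the nuclear copy may share, was not tested.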
